A study of Mus musculus with 58 samples.

Results

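The set holds the genes of glycolysis, of glycogen synthesis and breakdown, and of lactate transport, measured in limb and respiratory muscle of mice carrying human pancreatic tumours. A list of 37 symbols was matched to the gene symbols of the array's platform annotation. Of these, 33 had a probe set, out of 23185 named genes on the arrays. Gpi1, Pfkfb1, Gapdh and Eno1 were not analysed here. All mice were adult females of the NSG strain, which lacks mature T, B and NK cells. In the PDX (patient-derived xenograft) groups, pieces of pancreatic ductal adenocarcinoma from cachectic patients were attached to the mouse pancreas, with 1 patient's tumour in each of 4 cohorts. Sham groups, 1 in each cohort, had the surgery and received no tumour. Killing was timed by severe cachexia, the loss of muscle and fat that accompanies some cancers, or by a tumour size limit. Tibialis anterior, a limb muscle, and diaphragm, the main breathing muscle, each gave 3 sham arrays per cohort. PDX arrays numbered 3, 5, 5 and 4 per muscle in cohorts 1, 2, 3 and 4, so each muscle had 12 sham and 17 PDX arrays. The labels do not state that each array is a separate animal, and p-values measure the spread between arrays. Tumour of origin, surgery batch and cohort cannot be told apart, which is why PDX arrays were compared with sham arrays of their own cohort.

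Glycolysis splits glucose into pyruvate in the cytosol and yields ATP without oxygen. Fast muscle fibres rely on it for short bursts of work, and they store glucose as glycogen, which phosphorylase releases when phosphorylase kinase switches it on. Lactate dehydrogenase converts pyruvate to lactate, and monocarboxylate transporters carry the lactate across the membrane. Slow and oxidative fibres take up lactate and burn it, so the isozymes and transporters differ between muscles.

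Expression was measured as total RNA on Affymetrix arrays, and each value is a deposited log2 signal, on which a difference of 1 is a 2-fold change. Signals are compared within a gene only, since probe sets of different genes respond differently. Markers of muscle fibre (13 genes, among them Acta1, Ckm and Myh4) had array means of 11.20 to 11.43 in sham tibialis anterior and 10.58 to 11.20 in sham diaphragm. Slow fibre markers (7 genes, among them Myh7) had means of 4.18 to 5.15 and 8.75 to 9.78 in the same groups, so the labelled muscles were distinct and both were muscle. Markers of pancreatic acinar cells stayed at 2.64 to 2.97 in sham diaphragm and 2.57 to 2.99 in PDX diaphragm, below the median of all values, 3.78. Markers of liver cells did not. The mean of 18 hepatocyte genes, among them Alb and Apoa1, was above 5 in 15 of 29 diaphragm arrays, 6 of 12 sham and 9 of 17 PDX. It lay at 4.30 or below in the other 14 and at 6.24 or above in these 15. In cohort 1 the PDX diaphragm arrays were all among the 15. In tibialis anterior the same mean reached 4.93 on sham arrays and 5.84 on PDX arrays, and 4 arrays lay above 4.5, 1 sham and 3 PDX. Diaphragm results are therefore given with all arrays. For the set's genes, the calls that ended without the 11 arrays richest in hepatocyte signal, or without all 15, are named after those results. In whole-muscle RNA, fewer fibres of a type and less RNA per fibre cannot be told apart.

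The 4 promoter stretches below are those of the genes at the ends of the measured differences. Slc16a3 and Ldhb differed most between the sham muscles, in opposite directions, Phkg1 had the lowest tumour effect in diaphragm, and Fbp2 was higher in PDX arrays of both muscles. Each is the 250 bases upstream of the annotated start, written 5′ to 3′ on the gene's strand, from RefSeq (GRCm38.p6): Slc16a3 at chr11:120948817-120949066 on the plus strand, Ldhb at chr6:142507958-142508207, Phkg1 at chr5:129879089-129879338 and Fbp2 at chr13:62858401-62858650, these 3 on the minus strand. Capitals mark ACGTG, the core of the hypoxia response element, and CANNTG, the E-box that myogenic factors and MYC-family factors bind, searched on both strands.
Slc16a3: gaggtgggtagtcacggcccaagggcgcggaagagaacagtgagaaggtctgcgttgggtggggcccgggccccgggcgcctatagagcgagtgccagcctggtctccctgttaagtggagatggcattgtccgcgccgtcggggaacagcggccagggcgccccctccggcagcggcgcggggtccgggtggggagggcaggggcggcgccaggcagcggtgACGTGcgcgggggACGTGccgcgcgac
Ldhb: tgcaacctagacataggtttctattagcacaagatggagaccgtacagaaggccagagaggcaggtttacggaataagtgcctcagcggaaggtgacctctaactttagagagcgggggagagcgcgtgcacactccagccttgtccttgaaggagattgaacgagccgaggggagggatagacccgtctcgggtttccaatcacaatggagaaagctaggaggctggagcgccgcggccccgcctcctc
Phkg1: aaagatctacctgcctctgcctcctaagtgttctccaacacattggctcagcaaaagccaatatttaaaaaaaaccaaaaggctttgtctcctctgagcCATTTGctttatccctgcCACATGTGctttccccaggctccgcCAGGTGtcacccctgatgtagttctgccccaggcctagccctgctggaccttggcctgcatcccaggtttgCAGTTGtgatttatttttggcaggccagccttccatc
Fbp2: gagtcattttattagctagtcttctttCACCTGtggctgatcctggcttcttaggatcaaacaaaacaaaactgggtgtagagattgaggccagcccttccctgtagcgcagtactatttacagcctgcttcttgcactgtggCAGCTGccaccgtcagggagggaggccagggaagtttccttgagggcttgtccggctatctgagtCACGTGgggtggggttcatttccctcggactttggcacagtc
The Slc16a3 window held 2 ACGTG matches and no CANNTG. The Ldhb window held neither. The Phkg1 window held 5 CANNTG matches, of which a pair overlapped, and no ACGTG. The Fbp2 window held 3 CANNTG matches, and 1 of them was CACGTG, which also reads as ACGTG on each strand. Of the 33 measured genes, 32 had a promoter entry. ACGTG occurred in at least 1 window of 16 of them, against 18.5% of 27025 genes. CACGTG, which contains ACGTG and is itself a CANNTG, occurred in 7 (21.9%), against 6.86% of genes. These 7 were Pfkm, Pfkfb2, Pfkfb3, Ldha, Ppp1r3c, Slc16a1 and Fbp2. CANNTG occurred in 24 (75.0%), against 69.3%. The 27025 genes were not limited to those on the arrays, and a gene with more windows has more chances of a match. A match describes letters in this window and no binding was measured.

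In tibialis anterior, the tumour effect on the set was small and mostly downward, with 3 genes higher and 7 lower in PDX muscle. Fbp2, muscle fructose bisphosphatase, which runs a step of glycolysis backwards toward glycogen, rose most clearly. Pfkfb3 and Pfkfb4, 2 of the enzymes that set the level of the glycolytic activator fructose 2,6-bisphosphate, also passed the test. The 7 lower genes were Pfkfb2, Slc16a3, Pgam2, Phkg1, Tpi1, Slc16a1 and Ldha. A call here is a limma adjusted p under 0.05, with adjustment over all named genes, for the mean over 4 cohorts of PDX minus sham. By that rule 6.32% of all genes were higher and 6.53% lower, 12.8% together. Among genes whose mean lay above the median of all values, the shares were 11.4% and 11.6%. The median difference of the 33 genes was -0.11, and that of all genes was -0.0051.

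**Figure D1:**
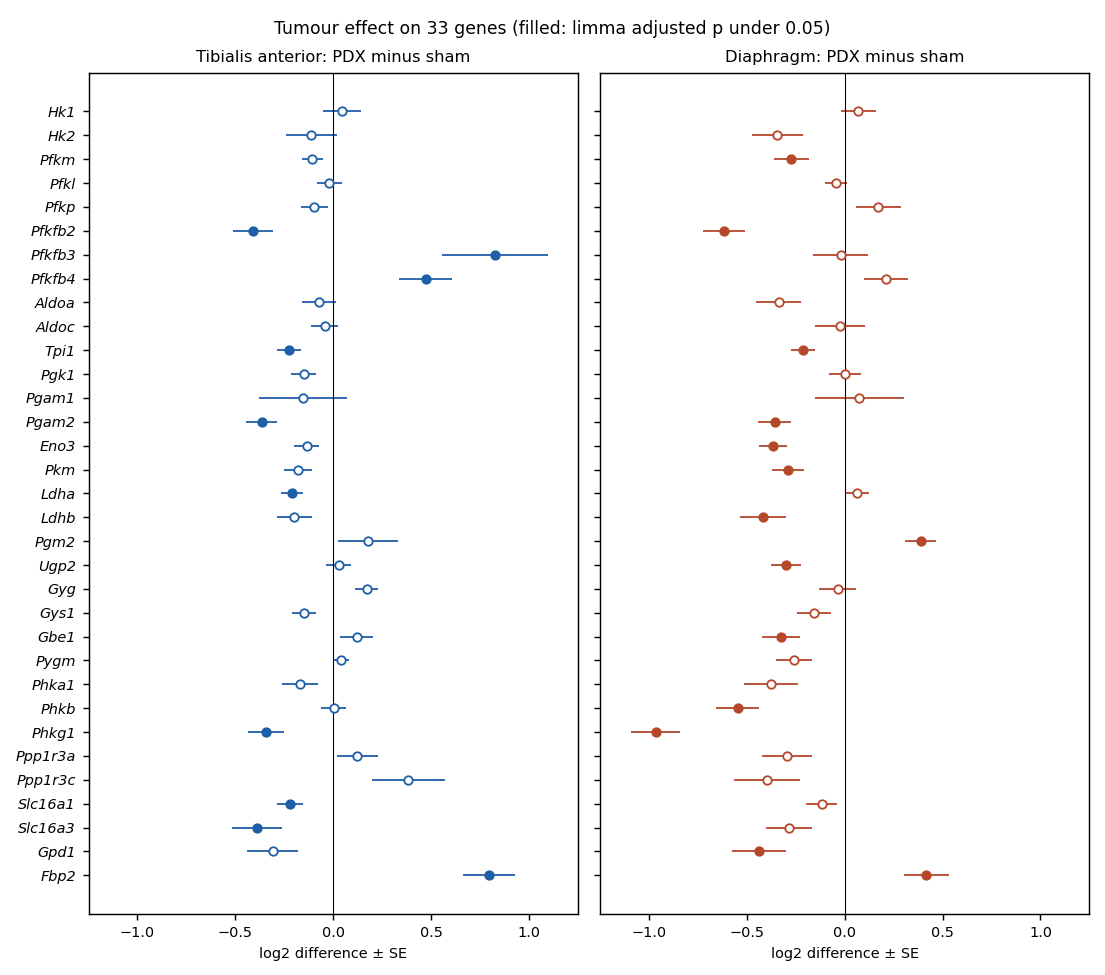
PDX minus sham on the log2 scale for the 33 genes, in pathway order, in tibialis anterior (left) and diaphragm (right); points are means over 4 cohorts, bars are ± SE, and filled points have a limma adjusted p under 0.05. In tibialis anterior 3 filled points lie above 0 and 7 below, and in diaphragm 2 lie above 0 and 12 below.

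Fbp2 signals in tibialis anterior lay between 5.31 and 6.80 with a median of 6.01 on the 12 sham arrays and between 5.81 and 7.83 with a median of 6.69 on the 17 PDX arrays. The groups overlapped over all arrays, and within cohort 1 every PDX array was above every sham array. Fbp2 rose by 0.79 (SE 0.13), which is 1.73-fold, with an adjusted p of 0.000136. By cohort its difference was 1.33, 0.56, 0.69 and 0.60, all upward, and the call held when any cohort was left out. Pfkfb3 lay between 5.86 and 8.34 with a median of 7.18 on sham arrays and between 6.01 and 10.19 with a median of 8.21 on PDX arrays. Its PDX values were widely spread, and the highest came from cohort 3. Pfkfb3 rose by 0.83 (SE 0.27), which is 1.78-fold, with an adjusted p of 0.0413. Its difference was -0.38, 0.76, 2.78 and 0.15 in cohorts 1 to 4. Without cohort 3 it was 0.18 with an adjusted p of 0.822, and leaving out 1 array ended the call in 18 of 29 fits. Pfkfb4 was upward in each cohort and rose by 0.47 (SE 0.13), which is 1.39-fold, with an adjusted p of 0.0166. Without cohort 1 its adjusted p was 0.17 and without cohort 2 it was 0.0975.

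Among the entry steps, neither hexokinase passed the test in tibialis anterior. Hk1, the form bound to mitochondria in most tissues, differed by 0.045 (SE 0.099), and Hk2, the main inducible form of muscle, by -0.11 (SE 0.13). The phosphofructokinase subunits, which catalyse the committed step, did not pass either. For Pfkm, Pfkl and Pfkp the differences were -0.11 (SE 0.056), -0.021 (SE 0.063) and -0.096 (SE 0.07). Pfkfb2, which also makes and breaks fructose 2,6-bisphosphate, moved opposite to Pfkfb3 and Pfkfb4. Pfkfb2 lay between 5.37 and 6.77 with a median of 5.95 on sham arrays and between 4.89 and 6.09 with a median of 5.56 on PDX arrays. It was lower in all PDX arrays than in sham arrays of the same cohort in 2 of 4 cohorts, and fell by 0.41 (SE 0.10), to 0.752 of the sham level, with an adjusted p of 0.00749. Cohort 3 gave its largest difference, -1.01, and without cohort 3 the adjusted p was 0.285.

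At the level of aldolase and the 3-carbon sugars, Tpi1, triose phosphate isomerase, fell by 0.23 (SE 0.061), to 0.855 of the sham level, with an adjusted p of 0.0122. Aldoa, the muscle aldolase, differed by -0.072 (SE 0.087) and Aldoc, the brain form, by -0.043 (SE 0.069). Pgam2, the muscle phosphoglycerate mutase, lay between 7.36 and 7.76 with a median of 7.54 on sham arrays and between 6.29 and 7.59 with a median of 7.18 on PDX arrays. The lowest PDX values lay below every sham value, while others fell within the sham range. Pgam2 fell by 0.37 (SE 0.078), to 0.776 of the sham level, with an adjusted p of 0.00175. The other enzymes of the lower pathway were not called. For Pgk1, Pgam1, Eno3 and Pkm the differences were -0.15 (SE 0.063), -0.16 (SE 0.22), -0.14 (SE 0.062) and -0.18 (SE 0.07). Pgam1 is the widely expressed mutase, Pgk1 a kinase that makes ATP, Eno3 the muscle enolase and Pkm pyruvate kinase. Ldha, the lactate dehydrogenase subunit of fast fibres, fell by 0.21 (SE 0.056), to 0.864 of the sham level, with an adjusted p of 0.0105. Ldhb, the subunit of heart and oxidative fibres, differed by -0.20 (SE 0.09) with an adjusted p of 0.167.

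No gene of glycogen synthesis passed the test in tibialis anterior. For Pgm2, Ugp2, Gyg, Gys1 and Gbe1 the differences were 0.18 (SE 0.15), 0.028 (SE 0.064), 0.17 (SE 0.059), -0.15 (SE 0.061) and 0.12 (SE 0.084). In order, these encode a phosphoglucomutase family member (Entrez gene 66681) known mainly for acting on pentose phosphates, the enzyme that makes UDP-glucose, the glycogen primer, muscle glycogen synthase and the branching enzyme. Gyg came nearest, with an adjusted p of 0.0557, and all 4 of its cohort differences were above 0. Pgm1 (Entrez gene 72157), the main phosphoglucomutase, which is not in the set, fell by 0.38 (SE 0.10), to 0.77 of the sham level, with an adjusted p of 0.0107. On the breakdown side, Pygm, muscle glycogen phosphorylase, differed by 0.04 (SE 0.043). Phkg1, the catalytic subunit of muscle phosphorylase kinase, fell by 0.34 (SE 0.091), to 0.788 of the sham level, with an adjusted p of 0.0105. Its regulatory subunits were not called, with differences of -0.17 (SE 0.09) for Phka1 and 0.0031 (SE 0.064) for Phkb. Ppp1r3a and Ppp1r3c, which tether a phosphatase to glycogen, differed by 0.12 (SE 0.10) and 0.38 (SE 0.19), and neither was called.

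Both lactate transporters were lower in PDX tibialis anterior. Slc16a3, the exporter of fast fibres (MCT4), lay between 8.29 and 9.22 with a median of 8.49 on sham arrays and between 6.54 and 9.07 with a median of 8.25 on PDX arrays, with overlap in every cohort. Slc16a3 fell by 0.39 (SE 0.13), to 0.763 of the sham level, with an adjusted p of 0.0435. Slc16a1, the transporter that oxidative fibres use for uptake (MCT1), fell by 0.22 (SE 0.067), to 0.859 of the sham level, with an adjusted p of 0.0284. With equal array medians neither transporter was called. Leaving out 1 array ended the call of Slc16a3 in 17 of 29 fits and that of Slc16a1 in 5 of 29. Those 5 were sham array 2 of cohorts 1, 2 and 4, sham array 1 of cohort 3 and PDX array 3 of cohort 1. Gpd1, the cytosolic glycerol phosphate dehydrogenase, differed by -0.31 (SE 0.13) with an adjusted p of 0.134.

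All 7 lower genes in tibialis anterior had a difference below 0 in each of the 4 cohorts, but the count of calls fell with fewer cohorts. Without cohort 1 limma called 0 of the set lower, without cohort 3 it called 2, without cohort 4 it called 4 and without cohort 2 it called 5. With the cohort as the replicate, limma called 0 of the set lower, and 1122 of all genes were called. Other cell types moved with the groups as well. The 5 tendon markers had array means of 4.38 to 6.28 on sham and 3.37 to 4.97 on PDX tibialis anterior arrays, and 4 of 5 were called lower. All 7 fibroblast and fibro-adipogenic progenitor markers were called lower, with array means of 7.11 to 7.86 and 4.87 to 6.99. With the tendon mean as a covariate, limma called 0 of all genes, with 1073 at an unadjusted p under 0.05, 1 of them in the set. Standard errors were 2.30 times as large (median) in that fit, and the median of the set was 0.084. All 4 erythroid markers were called higher, with array means of 2.85 to 4.46 on sham and 2.92 to 6.82 on PDX arrays. Of 13 muscle fibre markers 3 were called higher and 2 lower, with 5 of 13 below 0 and a median of 0.047. Myh2, the myosin of fast oxidative fibres, was among the lower ones and fell by 1.49 (SE 0.18). The part of erythroid, fibroblast and fibre signal in these differences was not tested. Without the 4 arrays with some hepatocyte signal, 4 genes of the set were called lower, and Tpi1, Slc16a1 and Slc16a3 were not.

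In diaphragm, 12 genes of the set were lower and 2 higher in PDX muscle. Phkg1, the catalytic subunit of phosphorylase kinase, fell most, to 0.512 of the sham level, followed by Pfkfb2 at 0.652 and Phkb, the kinase's beta subunit, at 0.684. Gpd1, Ldhb, Eno3, Pgam2, Gbe1, Ugp2, Pkm, Pfkm and Tpi1 also fell, and Fbp2 and Pgm2 rose. All 12 lower genes had a difference below 0 in each of the 4 cohorts, but the count of calls fell with fewer cohorts. Limma called 8 lower without cohort 1, 5 without cohort 2, 10 without cohort 3 and 5 without cohort 4, and with the cohort as the replicate it called 6 lower and 0 higher. Phkg1, Phkb, Pfkfb2 and Eno3 were called lower in each of these 5 fits, and each of the other 8 lost its call in at least 1 of them. Over all genes, 5.89% were called higher and 6.58% lower, 12.5% together, and among genes with a mean above the median of all values 9.2% and 11.6%. The median difference was -0.27 for the set and -0.0043 for all genes.

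Phkg1 signals in diaphragm lay between 7.21 and 8.03 with a median of 7.82 on sham arrays and between 6.04 and 7.38 with a median of 6.71 on PDX arrays. In each of the 4 cohorts, every PDX array was below every sham array, although the ranges of all arrays overlapped. Phkg1 fell by 0.97 (SE 0.12), to 0.512 of the sham level, with an adjusted p of 2.21e-05. Its cohort differences were -0.85, -0.85, -0.94 and -1.22. Without the 11 arrays richest in hepatocyte signal the difference was -0.96, and without all 15 and cohort 1 it was -0.93, with adjusted p values of 0.00293 and 0.0107. Phkb lay between 7.57 and 8.34 with a median of 7.81 on sham arrays and between 6.72 and 8.07 with a median of 7.34 on PDX arrays. Within cohorts, PDX and sham arrays did not overlap in 2 of 4. Phkb fell by 0.55 (SE 0.11), to 0.684 of the sham level, with an adjusted p of 0.00118, with cohort differences of -0.44, -0.73, -0.48 and -0.54. Its difference was -0.58 without the 15 arrays and cohort 1. Phka1, the alpha subunit of muscle, differed by -0.37 (SE 0.14, adjusted p 0.0774), and Pygm, the phosphorylase that the kinase activates, by -0.26 (SE 0.091, adjusted p 0.0664); neither was called.

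**Figure D2:**
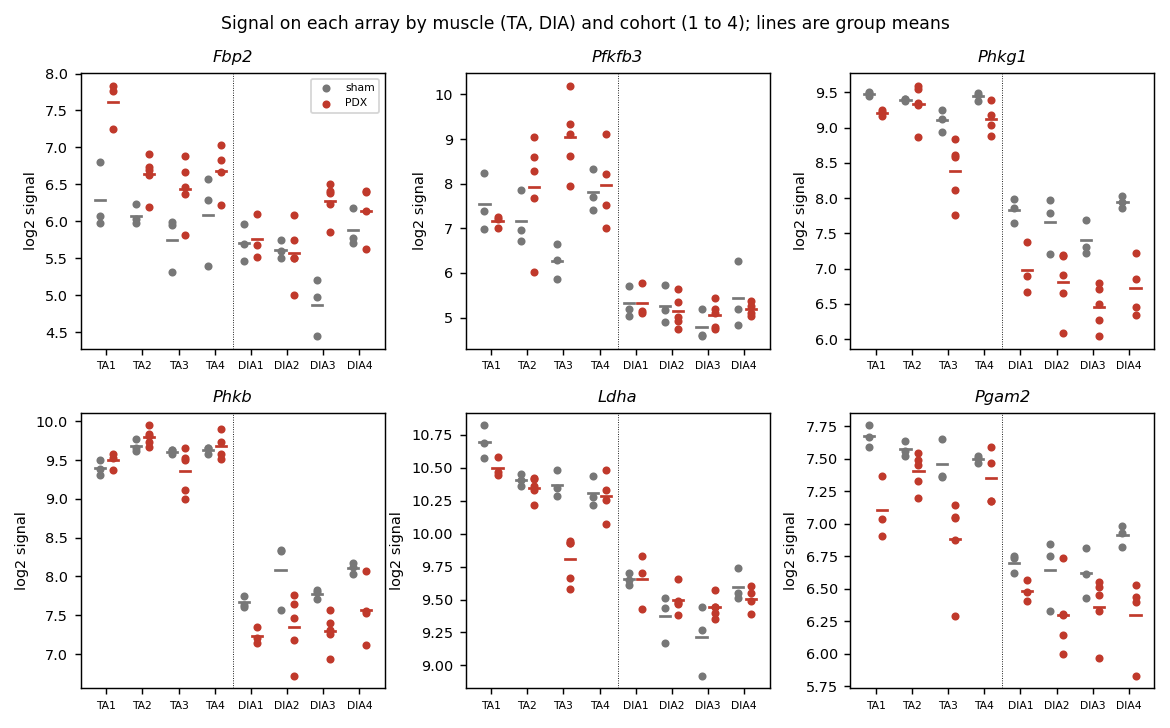
Log2 signal of 6 genes on every array, by muscle (TA, tibialis anterior; DIA, diaphragm) and cohort (1 to 4), sham in grey and PDX in red; short lines are group means and the vertical axes do not start at 0. Phkg1 in diaphragm is lower on every PDX array than on every sham array of its cohort, and Pfkfb3 in tibialis anterior is higher on every PDX array than on every sham array in cohort 3.

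Of the genes listed under glycogen synthesis, Ugp2 and Gbe1 fell in diaphragm and Pgm2 rose. The enzyme named Pgm2 here (Entrez gene 66681) is known mainly as a phosphopentomutase. Pgm2 lay between 5.02 and 5.57 with a median of 5.31 on sham arrays and between 5.23 and 6.35 with a median of 5.64 on PDX arrays, and it rose by 0.39 (SE 0.078), which is 1.31-fold, with an adjusted p of 0.00139. Its cohort differences were 0.55, 0.59, 0.42 and -0.015, so cohort 4 showed none of the rise. Ugp2 fell by 0.30 (SE 0.077), to 0.812 of the sham level, with an adjusted p of 0.00936. Gbe1, the branching enzyme, fell by 0.32 (SE 0.097), to 0.799 of the sham level, with an adjusted p of 0.0279. Gyg and Gys1 were not called, with differences of -0.036 (SE 0.094) and -0.16 (SE 0.086). The phosphatase-targeting subunits Ppp1r3a and Ppp1r3c differed by -0.30 (SE 0.13, adjusted p 0.153) and -0.40 (SE 0.17, adjusted p 0.139). Pgm1, outside the set, fell by 0.47 (SE 0.094), to 0.723 of the sham level, with an adjusted p of 0.0014.

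Of the upper glycolytic genes, Pfkfb2 and Pfkm fell in diaphragm. Pfkfb2 lay between 6.11 and 7.13 with a median of 6.48 on sham arrays and between 5.35 and 6.46 with a median of 5.85 on PDX arrays, with no overlap in 2 of 4 cohorts. Pfkfb2 fell by 0.62 (SE 0.11), to 0.652 of the sham level, with an adjusted p of 0.000352. Pfkm, the muscle phosphofructokinase subunit, fell by 0.27 (SE 0.089), to 0.828 of the sham level, with an adjusted p of 0.0439, and leaving out 1 array ended that call in 19 of 29 fits. The liver and platelet subunits Pfkl and Pfkp differed by -0.044 (SE 0.058) and 0.17 (SE 0.11) and were not called. Pfkfb3 and Pfkfb4 differed by -0.021 (SE 0.14) and 0.21 (SE 0.11), and the diaphragm means of Pfkfb4 lay below the median of all values. The 95% interval of the Pfkfb3 difference was -0.31 to 0.27. For Hk1 and Hk2 the differences were 0.069 (SE 0.089) and -0.34 (SE 0.13), and neither hexokinase passed.

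In the lower part of the pathway, Tpi1 fell by 0.21 (SE 0.064), to 0.863 of the sham level, with an adjusted p of 0.027. Pgam2 lay between 6.33 and 6.99 with a median of 6.75 on sham arrays and between 5.83 and 6.74 with a median of 6.41 on PDX arrays, and it fell by 0.36 (SE 0.086), to 0.78 of the sham level, with an adjusted p of 0.00597. Eno3, the muscle enolase, lay between 11.03 and 11.39 with a median of 11.32 on sham arrays and between 10.39 and 11.15 with a median of 10.96 on PDX arrays. PDX and sham arrays of Eno3 did not overlap in 3 of 4 cohorts. Eno3 fell by 0.37 (SE 0.071), to 0.776 of the sham level, with an adjusted p of 0.00107. Its signal was near the highest value of each array, 11.73 to 12.60, and whether the scale flattens there was not tested. Pkm fell by 0.29 (SE 0.08), to 0.818 of the sham level, with an adjusted p of 0.0167. Aldoa differed by -0.34 (SE 0.11, adjusted p 0.052), just outside the threshold, and Aldoc by -0.022 (SE 0.13). Pgk1 and Pgam1 differed by 0.0013 (SE 0.082) and 0.076 (SE 0.23). Aldoa, Pgk1, Pgam1 and Ldha have processed pseudogenes in the mouse genome, and whether their probes separate them is not given in the sources used here.

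Of the lactate genes, Ldhb fell in diaphragm. Ldhb lay between 7.82 and 8.49 with a median of 8.20 on sham arrays and between 6.93 and 8.13 with a median of 7.77 on PDX arrays, and it fell by 0.42 (SE 0.12), to 0.749 of the sham level, with an adjusted p of 0.0179. Ldha was not called, at 0.065 (SE 0.058) with a 95% interval of -0.055 to 0.18. The transporters were not called either, with differences of -0.12 (SE 0.08) for Slc16a1 and -0.28 (SE 0.12) for Slc16a3. Gpd1 fell by 0.44 (SE 0.14), to 0.737 of the sham level, with an adjusted p of 0.036, and leaving out 1 array ended that call in 12 of 29 fits. Fbp2 lay between 4.44 and 6.18 with a median of 5.65 on sham arrays and between 4.995 and 6.50 with a median of 6.09 on PDX arrays, and rose by 0.42 (SE 0.11), which is 1.33-fold, with an adjusted p of 0.016. Cohort 3 had the largest difference, 1.41, against 0.053, -0.047 and 0.25 in cohorts 1, 2 and 4. On the cohort 3 arrays, sham values were 4.98, 5.20 and 4.44 and PDX values 6.50, 6.24, 6.39, 5.86 and 6.41, and those sham values were the lowest of the diaphragm sham groups. Without cohort 3 the Fbp2 difference was 0.087 with an adjusted p of 0.79.

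Without the 11 diaphragm arrays richest in hepatocyte signal, the calls of 7 genes ended: Pfkm, Tpi1, Pgam2, Pkm, Ugp2, Gbe1 and Gpd1. Their differences there ran from -0.47 for Gpd1 to -0.22 for Tpi1. Phkg1, Phkb, Pfkfb2, Eno3 and Ldhb stayed lower and Pgm2 and Fbp2 higher, and Aldoa was called lower as well, at -0.50 (adjusted p 0.0338). Without all 15 and cohort 1, Phkg1, Phkb and Pfkfb2 were called lower and Fbp2 higher, and Eno3, Ldhb and Pgm2 were not called. Of the cohort 3 sham arrays, both fits kept array 3 only. Its Fbp2 signal, 4.44, was the lowest of all diaphragm arrays, and the Fbp2 rise came mainly from cohort 3. Without the 11 arrays, cohort 1 kept only sham array 1 and PDX array 2. Fewer arrays also gave fewer calls over all genes, 1438 and 654 against 2892. The other 9 genes that fell kept differences below 0 without the 15 arrays, from -0.49 for Ldhb to -0.26 for Tpi1. With the hepatocyte mean as a covariate on all 29 arrays, 16 were called lower and 2 higher. Macrophage markers moved with the groups in diaphragm: 6 of 7 were called higher, with array means of 5.55 to 6.45 on sham and 6.08 to 7.57 on PDX arrays. Muscle fibre markers had means of 10.58 to 11.20 and 10.14 to 11.16, with 2 of 13 called lower and 1 higher. Pvalb, the calcium buffer of fast fibres, fell by 0.90 (SE 0.20) and Mb, myoglobin, by 0.25 (SE 0.073). Myh4, the myosin of the fastest glycolytic fibres, differed by -1.12 (SE 0.43, adjusted p 0.0905). All 7 slow fibre markers lay below 0 too, 1 of them called, with a median of -0.33 against -0.078 for the 13 fibre markers. The 5 adipocyte markers also lay below 0, 1 of them called, with a median of -0.59. With quantile normalization over all arrays Pfkm, Tpi1, Pkm and Gbe1 were not called. The part of macrophage, adipocyte and fibre signal in the diaphragm differences was not tested. Leaving out 1 array ended the call of Gbe1 in 4 fits and that of Tpi1 in 4. For Gbe1 these were sham arrays 1 and 2 of cohort 2, sham array 3 of cohort 4 and PDX array 2 of cohort 1. For Tpi1 they were sham arrays 1 and 2 of cohort 2, sham array 3 of cohort 3 and sham array 2 of cohort 4.

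**Figure D3:**
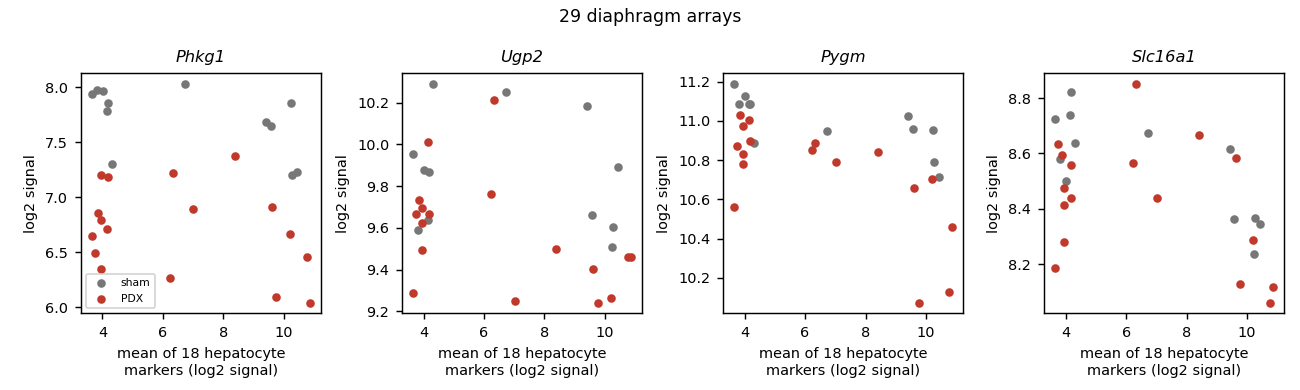
Log2 signal of Phkg1, Ugp2, Pygm and Slc16a1 on the 29 diaphragm arrays against the mean of 18 hepatocyte markers on the same array, sham in grey and PDX in red. In the Phkg1 panel all PDX arrays lie below all sham arrays on the 14 arrays with a marker mean under 5, with some overlap on the other 15, and the 3 lowest values of Pygm and of Slc16a1 are at high marker levels.

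The level of the set's genes on diaphragm arrays with and without hepatocyte signal was also set side by side, as a description over sham and PDX arrays together. The median of Phkg1 on the 15 arrays above 5 minus that on the other 14 was 0.016, and for Ldha and Pfkfb2 it was 0.0095 and 0.0074. It was lowest for Ppp1r3a, Hk2 and Gyg, at -0.43, -0.34 and -0.33, and highest for Gpd1, Pgam1 and Aldoc, at 0.27, 0.24 and 0.19.

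Across the muscles, 4 genes fell in both: Pfkfb2, Tpi1, Pgam2 and Phkg1. They were 4 of the 7 that fell in tibialis anterior and 4 of the 12 that fell in diaphragm, and 2.36% of all genes fell in both muscles. Fbp2 rose in both, as did 1.23% of all genes, and its rise in diaphragm came mainly from cohort 3. With the cohort as the replicate, or without cohort 1, limma called 0 of the set lower in tibialis anterior. Tpi1 and Pgam2 also lost their diaphragm calls in some of the fits given above. Called in neither muscle were 14 of the set. The share of all genes called in neither was not taken, so this count has no matching background here.

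The tumour effect itself differed between the muscles for 5 genes, and 4 of them belong to glycogen metabolism. Phkg1 fell further in diaphragm than in tibialis anterior, with a difference between the effects of -0.62 (SE 0.16, adjusted p 0.00935). Phkb fell in diaphragm only by its own test, and the difference between the effects was -0.55 (SE 0.13, adjusted p 0.00338). Gbe1 and Ugp2 had differences of -0.44 (SE 0.13, adjusted p 0.0279) and -0.33 (SE 0.098, adjusted p 0.0314). Ldha went the other way, at 0.28 (SE 0.077, adjusted p 0.0194), with a fall in tibialis anterior. This test is the diaphragm effect minus the tibialis anterior effect in a limma fit of all 58 arrays. It called 3.66% of all genes higher and 2.67% lower (6.33% in either direction), and 5.92% and 4.73% of genes with a mean above the median of all values. These were 849 and 619 genes in all, and with equal array medians 668 and 800. With equal array medians Ldha had a difference of 0.24 and an adjusted p of 0.0639. Without the 11 hepatocyte-rich arrays Phkb and Phkg1 were called, at -0.55 and -0.61. Without the 15 arrays and cohort 1, Phkb alone was called, at -0.55, and Phkg1 had -0.57 with an adjusted p of 0.116. With the cohort as the replicate the 5 calls were lost, and Ppp1r3c was called. The Phkg1 call also ended without cohort 1 (adjusted p 0.0609), cohort 2 (0.0607) or cohort 4 (0.108). That of Ugp2 ended with any cohort left out, that of Gbe1 without cohort 1, 2 or 4, and that of Ldha without cohort 1, 2 or 3, whereas Phkb was called in each of these 4 fits. Quantile normalization ended the calls of Ugp2 (adjusted p 0.0842) and Gbe1 (0.0808).

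The other 28 genes were not called by this test, and some intervals were wide. Pfkfb3 had a difference of -0.85 (SE 0.32, adjusted p 0.112), with a 95% interval of -1.497 to -0.20. Ppp1r3c, the targeting subunit that responds to fasting and hypoxia, had -0.78 (SE 0.26, adjusted p 0.0629), and Ppp1r3a had -0.42 (SE 0.17, adjusted p 0.145). Pygm had -0.30 (SE 0.098, adjusted p 0.0598) and Fbp2 -0.38 (SE 0.18, adjusted p 0.247). Eno3 had -0.23 (SE 0.093), Pgam2 0.0077 (SE 0.12), Pkm -0.11 (SE 0.11), Pgk1 0.15 (SE 0.10) and Pgam1 0.23 (SE 0.33). For Pfkm, Pfkl, Pfkp, Pfkfb2, Pfkfb4, Aldoa, Aldoc and Tpi1 the values were -0.17 (SE 0.10), -0.023 (SE 0.083), 0.27 (SE 0.14), -0.21 (SE 0.15), -0.26 (SE 0.18), -0.27 (SE 0.15), 0.02 (SE 0.15) and 0.013 (SE 0.085). Hk1 and Hk2 had 0.024 (SE 0.14) and -0.23 (SE 0.19). Phka1 had -0.20 (SE 0.17), Gys1 -0.0071 (SE 0.10), Gyg -0.21 (SE 0.11) and Pgm2 0.21 (SE 0.18). In lactate handling Ldhb had -0.22 (SE 0.15), Slc16a1 0.10 (SE 0.10) and Slc16a3 0.10 (SE 0.18), and Gpd1 had -0.13 (SE 0.20). Leaving out diaphragm sham array 1 of cohort 2 ended the Gbe1 call (adjusted p 0.0534). Leaving out any of 6 arrays ended that of Ugp2, namely tibialis anterior sham array 1 of cohorts 2 and 4, diaphragm sham array 2 of cohort 2, sham array 3 of cohorts 3 and 4, and PDX array 2 of cohort 1. Without tibialis anterior PDX array 1 of cohort 3, 8 of the set were called lower by this test and 5 were called higher in tibialis anterior.

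Cohorts were then compared, since each carried another patient's tumour. A limma F test that the 4 cohort effects are equal called 0 genes of the set in either muscle, with 4 at an unadjusted p under 0.05 in tibialis anterior and 2 in diaphragm. Over all genes it called 3 (0.0129%) and 1 (0.00431%), with 1700 and 1726 at an unadjusted p under 0.05. The widest spread was that of Pfkfb3 in tibialis anterior, with an adjusted p of 0.304. Fbp2 in diaphragm had an adjusted p of 0.206. In tibialis anterior, cohort 3 gave the lowest value of Pfkfb2 (-1.01), Ldha (-0.56), Phka1 (-0.69), Phkg1 (-0.72) and Slc16a3 (-0.75). Ppp1r3c in that muscle was 0.80, 0.51, -0.35 and 0.58 in cohorts 1 to 4, and in diaphragm 0.30, -0.47, -1.07 and -0.36. These cohort values are descriptions of 3 to 5 PDX arrays each.

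**Figure D4:**
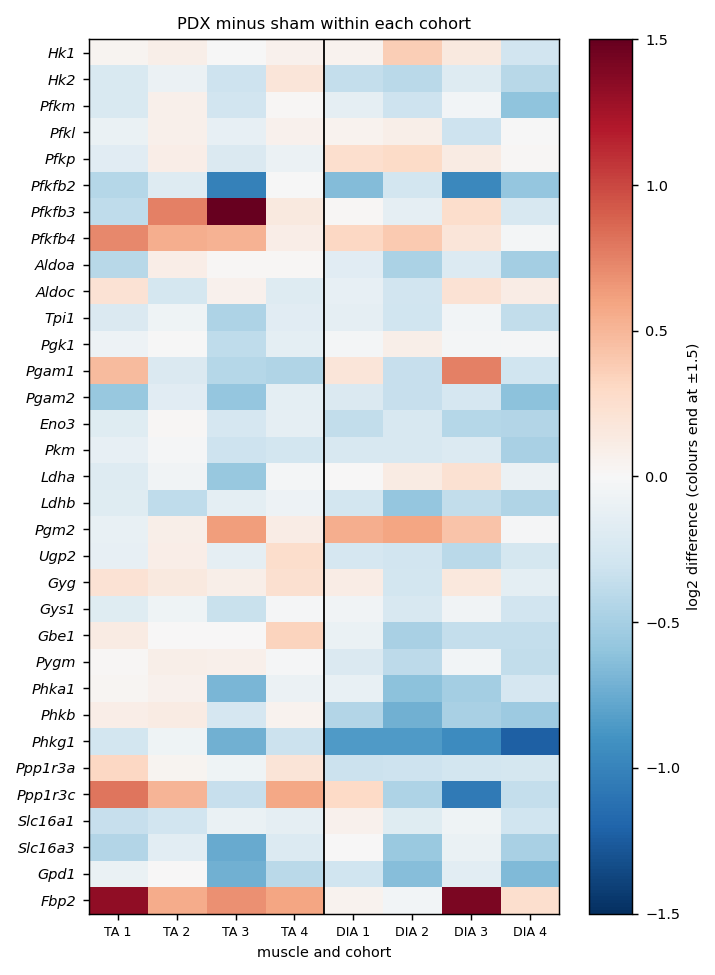
PDX minus sham within each cohort for the 33 genes, on a log2 colour scale that ends at ±1.5, with tibialis anterior (TA) on the left and diaphragm (DIA) on the right. Phkg1 is blue in all 4 diaphragm cohorts, and Fbp2 is darkest in cohort 1 of tibialis anterior and cohort 3 of diaphragm; Pfkfb3 in cohort 3 of tibialis anterior, 2.78, is beyond the scale.

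The muscles differed in this pathway without any tumour: between sham diaphragm and sham tibialis anterior, 20 genes were lower in diaphragm, 8 were higher and 5 were not called. Over all genes 24.5% were lower and 15.2% higher, 39.7% together, and among genes with a mean above the median of all values 27% and 24.1%. Slc16a3, the lactate exporter of fast fibres, stood at 0.092 of its tibialis anterior level. All 3 phosphorylase kinase subunits stood at similar fractions, 0.321 for Phka1, 0.314 for Phkb and 0.319 for Phkg1. Ldhb, the subunit of oxidative muscle, was 3.93-fold higher in diaphragm, while Ldha was at 0.504 of its limb level. The median difference of the set was -0.50, and that of all genes -0.085.

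**Figure D5:**
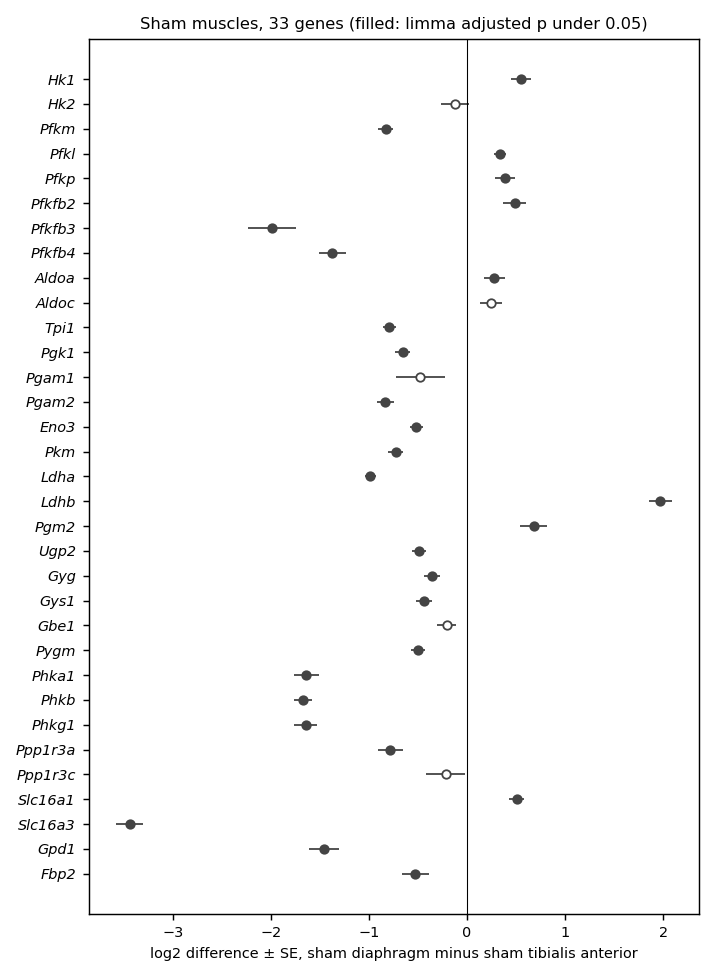
Sham diaphragm minus sham tibialis anterior on the log2 scale for the 33 genes in pathway order; points are means over 4 cohorts, bars are ± SE, and filled points have a limma adjusted p under 0.05. Slc16a3 lies farthest below 0 and Ldhb farthest above.

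Ranges over the 12 sham arrays of each muscle did not overlap for 17 genes that were lower in diaphragm, against 2.17% of all genes, and for 1 that was higher, Ldhb, against 2.62%. Slc16a3 lay between 8.29 and 9.22 with a median of 8.49 in tibialis anterior and between 4.46 and 5.94 with a median of 5.09 in diaphragm. Every limb array was above every diaphragm array. The difference was -3.44 (SE 0.14, adjusted p 1.98e-25). Slc16a1 lay between 7.83 and 8.31 with a median of 8.03 and between 8.24 and 8.82 with a median of 8.60, and it was 1.42-fold higher in diaphragm at 0.50 (SE 0.079, adjusted p 1.05e-06). The differences of the uptake and export transporters were in opposite directions. Ldhb lay between 5.68 and 6.53 with a median of 6.18 in tibialis anterior and between 7.82 and 8.49 with a median of 8.20 in diaphragm, a difference of 1.97 (SE 0.11, adjusted p 2.72e-19). Ldha lay between 10.22 and 10.83 with a median of 10.42 and between 8.92 and 9.74 with a median of 9.51, a difference of -0.99 (SE 0.058, adjusted p 5.12e-19).

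Glycogen breakdown genes were lower in sham diaphragm throughout. Phkg1 lay between 8.94 and 9.51 with a median of 9.40 in tibialis anterior and between 7.21 and 8.03 with a median of 7.82 in diaphragm. Phkb lay between 9.31 and 9.77 with a median of 9.62 and between 7.57 and 8.34 with a median of 7.81, and Phka1 between 9.27 and 9.87 with a median of 9.76 and between 7.69 and 8.34 with a median of 8.08. None of the 3 overlapped between the muscles. Their differences were -1.65 (SE 0.12), -1.67 (SE 0.095) and -1.64 (SE 0.13), with a highest adjusted p of 8.14e-15. Pygm differed by -0.50 (SE 0.075, adjusted p 4.26e-07). In synthesis, Gys1, Ugp2 and Gyg were lower, at -0.44 (SE 0.079), -0.49 (SE 0.074) and -0.36 (SE 0.083), and Gbe1 was not called, at -0.21 (SE 0.098). Pgm2 was higher in diaphragm, at 0.68 (SE 0.14, adjusted p 8.79e-05), whereas Pgm1 was lower, at -1.15 (SE 0.11, adjusted p 2.23e-12). Ppp1r3a, the targeting subunit of skeletal muscle, was lower, at -0.78 (SE 0.13, adjusted p 2.89e-06), and Ppp1r3c was not called, at -0.22 (SE 0.20).

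The phosphofructokinase subunits differed in opposite directions. Pfkm, the muscle subunit, was lower in diaphragm, at -0.83 (SE 0.078, adjusted p 4.04e-12), and the liver and platelet subunits Pfkl and Pfkp were higher, at 0.33 (SE 0.063, adjusted p 3.31e-05) and 0.39 (SE 0.10, adjusted p 0.00247). Of the fructose 2,6-bisphosphate enzymes, Pfkfb3 and Pfkfb4 were lower, at -1.99 (SE 0.24, adjusted p 4.85e-09) and -1.38 (SE 0.14, adjusted p 1.87e-11), and Pfkfb2 was higher, at 0.48 (SE 0.12, adjusted p 0.000776). Pfkfb3 lay between 5.86 and 8.34 with a median of 7.18 in limb muscle and between 4.58 and 6.27 with a median of 5.18 in diaphragm, so its ranges overlapped despite the size of the difference. Hk1 was higher at 0.55 (SE 0.10, adjusted p 2.67e-05), and Hk2 was not called, at -0.12 (SE 0.15). Aldoa was higher at 0.28 (SE 0.11, adjusted p 0.0398), a call that ended in 11 of 24 fits with 1 sham array left out, and Aldoc was not called, at 0.24 (SE 0.11). Whether the Aldoa probes separate its processed pseudogenes is not given, as stated above. Aldoc lay below the median of all values in every group mean, and Pfkfb4 did in both diaphragm group means, which limits what its differences there can show.

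From triose phosphate to pyruvate, the called genes were all lower in sham diaphragm. Tpi1 differed by -0.79 (SE 0.065), Pgk1 by -0.66 (SE 0.077), Pgam2 by -0.83 (SE 0.088), Eno3 by -0.52 (SE 0.07) and Pkm by -0.73 (SE 0.08). The highest adjusted p among these 5 was 5.86e-08. Pgk1 had sham means of 4.57 in tibialis anterior and 3.92 in diaphragm, near the median of all values, 3.78. Whether its probes separate its processed pseudogenes is not given. Pgam1, the non-muscle mutase, was not called, at -0.48 (SE 0.25). Gpd1, which links glycolysis to lipid synthesis and to the glycerol phosphate shuttle, lay between 8.56 and 9.75 with a median of 9.42 in tibialis anterior and between 6.99 and 8.47 in diaphragm, and differed by -1.46 (SE 0.15, adjusted p 4.01e-11). Gpd2, the mitochondrial enzyme of that shuttle and no member of the set, differed by -1.98 (SE 0.14, adjusted p 2.19e-16). Fbp2 was lower in diaphragm, at -0.53 (SE 0.14, adjusted p 0.00197).

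All 18 hepatocyte markers and all 7 slow fibre markers were higher in sham diaphragm than in sham tibialis anterior. So were all 5 adipocyte and all 4 mesothelium markers, 6 of 7 macrophage markers, and 5 of 7 fibroblast and fibro-adipogenic progenitor markers. Without the 11 hepatocyte-rich arrays the set had 8 genes higher and 20 lower, as with all arrays. Without the 15 arrays and cohort 1 there were 6 higher and 20 lower. In that fit Pfkp, Pfkfb2 and Gyg were not called and Pgam1 was. The differences of Slc16a3 and Ldhb there were -3.17 and 2.16. Myh7, the slow myosin, differed by 5.69 (SE 0.15), and Myh4, the fast one, by -1.98 (SE 0.33). The part of fibre type and of the other cell types in these differences was not tested.

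Neighbouring pathways were described by the same test, and their shares of called genes are to be read against 12.8% of all genes in tibialis anterior, 12.5% in diaphragm and 39.7% in the sham contrast. Single genes of these lists, and Pgm1, were not followed in the fits without hepatocyte-rich arrays or with cohorts left out. Whether their calls would hold there is not given. Of 22 other glycogen genes, 2 rose and 2 fell in tibialis anterior, with a median of -0.004, and 0 rose and 3 fell in diaphragm, with a median of -0.035. The called shares were 18.2% and 13.6%, the second near that of all genes. Gaa, the lysosomal glucosidase that breaks down glycogen, rose by 0.41 (SE 0.083), which is 1.33-fold, with an adjusted p of 0.00114 in tibialis anterior. In diaphragm Gaa differed by -0.046 (SE 0.064), and the difference between the effects was -0.45 (SE 0.10, adjusted p 0.00404). Ppp1cb, a catalytic subunit of the phosphatase that the targeting subunits hold, rose by 0.15 (SE 0.044) in tibialis anterior. Nhlrc1, the ubiquitin ligase malin, fell by 0.27 (SE 0.062) there. Epm2a, the glycogen phosphatase laforin, fell by 0.47 (SE 0.13) in diaphragm. Its effect differed between the muscles by -0.49 (SE 0.14, adjusted p 0.0269). In sham muscle 7 of the 22 were higher and 10 lower in diaphragm (77.3% called), with Stbd1, a glycogen-binding protein, lowest at -1.67 (SE 0.12).

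Of 17 other transport and redox shuttle genes, 0 rose and 5 fell in tibialis anterior, and 1 rose and 3 fell in diaphragm. The called shares were 29.4% and 23.5%, and the medians were -0.16 and -0.21. Mdh1, the cytosolic malate dehydrogenase of the malate-aspartate shuttle, fell by 0.33 (SE 0.086) in tibialis anterior and by 0.30 (SE 0.081) in diaphragm. Slc25a11, the oxoglutarate carrier of that shuttle, fell by 0.36 (SE 0.093) in diaphragm. Slc16a6, a further member of the monocarboxylate transporter family, fell in tibialis anterior by 0.44 (SE 0.088), and its effect differed between muscles by 0.55 (SE 0.11, adjusted p 0.000905). Emb, which escorts monocarboxylate transporters to the membrane, rose in diaphragm by 0.51 (SE 0.15), and its effect differed by 0.71 (SE 0.19, adjusted p 0.017). In the sham contrast 6 of the 17 were higher and 6 lower, 70.6% together.

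Of 13 other glycolytic isozymes, 1 fell in tibialis anterior, and 1 rose and 2 fell in diaphragm, with medians of -0.012 and 0.011. The called shares were 7.69%, below that of all genes, and 23.1%. Ldhd, the D-lactate dehydrogenase of mitochondria, fell by 0.29 (SE 0.078) and 0.52 (SE 0.12). Tigar, a phosphatase of fructose 2,6-bisphosphate, fell by 0.33 (SE 0.082) in diaphragm, and Eno2, the neuronal enolase, rose by 0.30 (SE 0.087). Of 7 gluconeogenesis genes, Slc37a4, the glucose 6-phosphate transporter, fell in both muscles, by 0.63 (SE 0.13) and 0.64 (SE 0.19), and no other was called (14.3% in each muscle). In the sham contrast Pck1 and G6pc, genes of liver glucose output, were higher in diaphragm at 3.35 (SE 0.59) and 2.04 (SE 0.69), beside the hepatocyte and adipocyte markers. Of 11 pentose phosphate and hexosamine genes, H6pd rose in both muscles, by 0.55 (SE 0.16) and 0.39 (SE 0.11). Gfpt2, an isozyme of the first hexosamine step, rose by 0.54 (SE 0.15) in diaphragm, and Gfpt1 fell by 0.23 (SE 0.063) in tibialis anterior, so that 18.2% were called in each muscle.

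Among 23 regulators of glycolytic genes, 3 rose and 3 fell in tibialis anterior, and 4 rose and 5 fell in diaphragm. The called shares were 26.1% and 39.1%, and the medians were 0.0087 and -0.11. Klf15, a factor induced by glucocorticoids, rose by 0.69 (SE 0.10), which is 1.61-fold, with an adjusted p of 3.2e-05 in tibialis anterior. In diaphragm it differed by -0.096 (SE 0.11), and the effects differed by -0.79 (SE 0.15, adjusted p 0.00052). Arnt, the partner of the hypoxia-inducible factors, rose by 0.56 (SE 0.096) in tibialis anterior. Hif1a, the oxygen-regulated partner, rose by 0.39 (SE 0.09) in diaphragm, and Myc rose by 0.99 (SE 0.15), which is 1.98-fold, with an adjusted p of 8.26e-05 there. Mlxipl, a glucose-sensing factor, fell in both muscles, by 0.40 (SE 0.10) and 0.68 (SE 0.15). Prkag3, the AMPK subunit of glycolytic muscle, fell by 0.53 (SE 0.13) in tibialis anterior. Egln3, a prolyl hydroxylase that marks hypoxia-inducible factors for degradation, fell by 0.62 (SE 0.17) in diaphragm, and its effect differed between the muscles by -0.73 (SE 0.21, adjusted p 0.0246). In sham muscle Prkag3 and Eya4 were lower in diaphragm, at -2.06 (SE 0.13) and -1.82 (SE 0.12), and Egln3 and Ppargc1a were higher, at 0.91 (SE 0.16) and 0.64 (SE 0.22).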

How the data were processed

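Deposited values are log2 signals made by the authors with RMA (affy 1.36.1 in R 2.15.1), per the submitters' processing notes. RMA subtracts background, equalises array distributions and summarises probes, which can shrink large differences, and it gives no detection call. Neither labels nor headers name the probe definitions or genome build. The table held 25206 probe sets on 58 arrays; 23185 had a gene name and 2021 had none and were left out. Gene names came from the platform annotation, with 1 probe set per name. No 2 arrays were identical (highest correlation 0.993), and array medians lay between 3.70 and 3.86. The number of arrays limits the precision.

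Values were fitted with limma 3.58.1 in R 4.3.3 (lmFit, eBayes, two-sided), after tests on simulated data. Each muscle was fitted on its own 29 arrays with 8 group means, and the tumour effect was the equally weighted mean of the 4 cohort differences. The difference between muscles and the sham contrast used all 58 arrays and 16 group means. Benjamini-Hochberg adjustment ran over 23185 genes, with a threshold of 0.05 and no filter on dim genes. All members are named; from each other list, up to 2 highest and 2 lowest called genes per comparison. Members and lists were chosen with earlier results of these data known. Alternatives were other normalizations, a filter on dim genes, array weights, covariates, a replicate block, the cohort as the replicate, and arrays or cohorts left out. Leaving out the 15 diaphragm arrays and the 4 tibialis anterior arrays was chosen after seeing the data, as was the F test without 11 arrays. Promoter windows were RefSeq GRCm38.p6.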

Additional observations from a re-analysis of the deposited data

Results flagged for a closer look

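Single arrays stood apart from the rest of their group by Dixon's test in 14 of the 198 combinations of gene and PDX group that were tested. The tested combinations did not include every gene in every PDX group. Chance flags about 1 in 20 of independent values, and genes on the same array are not independent. Of the 14, 5 were in diaphragm and lowest on PDX array 4 of cohort 3, the array whose hepatocyte mean, 10.87, was the highest of all diaphragm arrays. The values there were 9.079 for Pfkm, where the nearest array had 9.498; 8.956 for Gyg, where the nearest array had 9.541; 7.332 for Gbe1, where the nearest array had 7.83; 10.46 for Pygm, where the nearest array had 10.85; and 7.687 for Ppp1r3a, where the nearest array had 8.626. The part of hepatocyte signal in these low values was not tested. Gyg was also lowest, at 8.73 against 9.582, on diaphragm PDX array 3 of cohort 4, whose hepatocyte mean was 10.77.

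PDX array 3 of cohort 3 in diaphragm was lowest for Pfkfb4, at 2.553 against 3.338, and for Pgam1, at 1.818 against 3.507. Aldoc was lowest on diaphragm PDX array 5 of cohort 2, at 2.969 against 3.538. In tibialis anterior it was highest on PDX array 1 of cohort 4, at 3.848 against 3.501. Tibialis anterior PDX array 1 of cohort 3 was lowest for Gbe1, at 7.68 against 8.341, and for Ppp1r3a, at 8.453 against 9.632. PDX array 1 of cohort 2 in that muscle was lowest for Phka1, at 9.44 against 9.808, and for Gpd1, at 8.606 against 9.377.

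The tumour effect differed between the muscles by limma's test for 5 genes. Diaphragm minus tibialis anterior was 0.2755 for Ldha, -0.3295 for Ugp2, -0.4432 for Gbe1, -0.5504 for Phkb and -0.6208 for Phkg1, on the log2 scale.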

How the results depend on the processing

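Counts for the set are higher and lower calls, and for all genes calls in either direction. In tibialis anterior, 3 higher, 7 lower and 2979 genes became 5 higher with array weights; 0 lower and 1122 genes with the cohort as the replicate; 0, 0 and 0 with the tendon covariate (1073 genes at unadjusted p under 0.05); 4 lower without 4 arrays with hepatocyte signal; 0 lower and 1426 genes without cohort 1; 2 lower without cohort 3 and 4 without cohort 4. In diaphragm, 2 higher, 12 lower and 2892 genes became 0, 6 and 1018 with the cohort as the replicate; 6 lower and 1438 genes without the 11 hepatocyte-rich arrays; 1, 3 and 654 without the 15 and cohort 1; 1501 genes without cohort 1; 5 lower and 1699 genes without cohort 2; 1 higher without cohort 3; 5 lower without cohort 4. For the difference between muscles, 1 higher, 4 lower and 1468 genes became 9 lower and 2690 genes with array weights; 0, 1 and 403 with the cohort as the replicate; 0 higher with equal array medians; 2 lower with quantile normalization; 0 and 2 without the 11 arrays; 0, 1 and 515 without the 15; 0, 1 and 531 without cohort 1; 0, 1 and 705 without cohort 2; 0 higher without cohort 3; 1 lower without cohort 4. The sham contrast had 6 to 9 higher and 20 or 21 lower in these fits, while all genes went from 9210 to 5656 without the 11 arrays and 4366 without the 15. With 1 array left out, the higher count in tibialis anterior ran from 2 to 5 and the lower count for the difference from 3 to 8, the high values without tibialis anterior PDX array 1 of cohort 3. Slc16a3 in tibialis anterior turned to 0.27 with the tendon covariate (adjusted p 0.999), where no gene passed. Of 6302 values of the set under alternatives, a further 184 changed sign, all past the threshold in neither fit. Many of these alternatives fitted fewer arrays or replicates, and why the counts changed was not tested.

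The labels do not state whether equal numbers in the titles mark the same animal, and the main fits treated all arrays as separate. Correlations over all genes of the arrays' deviations from their group means cannot settle it, because hepatocyte signal also varied between diaphragm arrays. Of 29 same-numbered pairs of muscles, 4 had a correlation over 0.1 (range -0.22 to 0.22), and of 24 same-numbered pairs of sham and PDX arrays 5 had (range -0.59 to 0.65). With the replicate block the set had 2 higher and 5 lower in tibialis anterior, 1 and 9 in diaphragm, 0 and 2 for the difference between muscles, and 7 and 20 in the sham contrast. The F test between cohorts called 0 of the set under every alternative run: quantile normalization, the filter on dim genes, each array left out and, in diaphragm, without the 11 arrays; it was not run with cohorts left out, weights or the block. Without detection calls, signal over background is unknown, and Aldoc, Pgam1 and Pgk1, and Pfkfb4 in diaphragm, lie near or below the median of all values.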
